A study of Mus musculus with 4 samples.

Results

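Regions of the deposited m6A peak table that carry no gene annotation are described here across cells lacking both Gsk-3 kinases and wild-type cells. They were taken as the distinct regions whose overlap type was blank in every row, which gave 1358 of 6697 listed regions (20.3%). The other regions compared with them are 3732 exonic regions, which touch a coding exon or untranslated region, and 1097 intronic regions, which touch an intron but no exon. The study sequenced RNA bearing N6-methyladenosine (m6A) from mouse embryonic stem cells of the E14K strain, with 1 m6A-seq library from Gsk-3 DKO (double knockout) cells and 1 from wildtype (WT) cells. An input mRNA library of each genotype was also labelled, and the table had 0 input columns. Both genotypes were grown feeder-free on gelatin and then for 14 days without LIF, a cytokine added to keep such cells self-renewing. How the double-knockout line was derived, and whether it is 1 clone, is not given in the sources used here.

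N6-methyladenosine is placed on adenosines of RNA polymerase II transcripts by a methyltransferase complex that prefers a short consensus around GGACT. In messenger RNA it is best known from long internal exons and the region around the stop codon, where reader proteins couple it to splicing, translation and decay. A region can lack a gene name because it lies in unannotated transcription, in a repeated element, in an alternative exon or first exon missing from the annotation used, or beyond an annotated gene end.

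Each region had 1 count per genotype, with no replicate, so no p-value was computed and every interval covers counting error only. Over all listed regions the counts summed to 27072 in DKO and 573971 in WT. These sums are not sequencing depth, because the table lists only selected regions and gives no library totals. Because the column headers give only a genotype, the counts were assigned to the m6A libraries by the titles of the samples. Counts from the input libraries, or counts corrected for them, are also possible, and every count and fold below would then have another meaning. Every listed region had fewer DKO than WT reads, so a lower DKO count is a property of the list itself and cannot be read as a result for RNA outside it. The deleted genes could not be checked, since Gsk3a had 0 rows and Gsk3b had only 1, in an upstream region. Of the pluripotency markers Pou5f1, Nanog and Sox2, Pou5f1 had 1 row (6 DKO reads against 55 WT reads) and the other two had 0, and a gene missing from a list of this kind is not thereby unexpressed. In bulk libraries, fewer cells of a type and less RNA per cell cannot be told apart. Less methylation and less RNA from a region cannot be told apart either, because the listed counts have no input counts beside them. Folds below are therefore of reads, not of methylation per RNA.

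Only 4 of the 1358 regions overlapped one of the RefSeq promoter windows at hand, and these are the regions whose letters can be shown. The windows are in GRCm38.p6, the build whose genes the coordinates match. Some genes had no window, and a window need not lie at the outer end of the gene's span. Each window runs from 250 bases before to 50 after a gene's start, is written 5′ to 3′ on the gene's strand, and has in capitals the bases that the listed region covers. They are shown because they place reads without a gene name at or beside the start of a gene in a second annotation.
Acot11, chr4:106804958-106805257, minus strand: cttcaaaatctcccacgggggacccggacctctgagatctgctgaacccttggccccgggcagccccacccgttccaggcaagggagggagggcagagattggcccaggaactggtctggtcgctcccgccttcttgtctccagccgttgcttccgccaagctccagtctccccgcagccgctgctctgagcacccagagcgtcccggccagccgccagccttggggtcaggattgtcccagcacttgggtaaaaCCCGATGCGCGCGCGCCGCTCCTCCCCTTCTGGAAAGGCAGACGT
Gm35543, chr8:110113523-110113822, plus strand: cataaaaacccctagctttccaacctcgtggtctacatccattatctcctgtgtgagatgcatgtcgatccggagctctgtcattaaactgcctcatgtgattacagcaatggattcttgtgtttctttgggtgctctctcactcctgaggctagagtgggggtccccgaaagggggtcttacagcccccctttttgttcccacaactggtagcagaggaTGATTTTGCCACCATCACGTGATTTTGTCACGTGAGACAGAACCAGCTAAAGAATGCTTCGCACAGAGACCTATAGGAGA
Gm30337, chr11:111802155-111802454, plus strand: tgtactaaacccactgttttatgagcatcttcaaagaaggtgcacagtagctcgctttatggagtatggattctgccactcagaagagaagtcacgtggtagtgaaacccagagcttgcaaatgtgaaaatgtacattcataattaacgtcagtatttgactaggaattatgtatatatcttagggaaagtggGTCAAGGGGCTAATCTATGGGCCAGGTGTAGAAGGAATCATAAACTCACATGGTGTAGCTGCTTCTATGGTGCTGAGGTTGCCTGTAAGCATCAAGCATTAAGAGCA
Gm39498, chrX:17809054-17809353, minus strand: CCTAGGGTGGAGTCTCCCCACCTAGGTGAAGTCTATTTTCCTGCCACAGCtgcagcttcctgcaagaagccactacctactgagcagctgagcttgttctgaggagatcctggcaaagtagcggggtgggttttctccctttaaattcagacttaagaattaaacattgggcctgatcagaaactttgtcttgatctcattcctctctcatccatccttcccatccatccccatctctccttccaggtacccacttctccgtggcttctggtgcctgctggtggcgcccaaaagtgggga
The Acot11 region, in the gene of an acyl-CoA thioesterase, covered positions 5 to 238 downstream of the RefSeq start and had 0 DKO reads against 40 WT reads. The regions of the long non-coding RNA genes Gm35543 and Gm30337 ran across the start, from -30 to 126 and from -57 to 185, with 0 DKO reads against 73 and 19 WT reads. The region beside Gm39498 lay before its start, from -423 to -201, with 0 DKO reads against 63 WT reads. All 4 had no DKO reads, as had 71.9% of all unannotated regions and 50.5% of all listed regions, so these 4 say little about regions at gene starts. Outside these windows, regions 44 bases upstream of the Iqsec1 span and 115 bases upstream of the Adgrl2 span had 0 and 9 DKO reads. Their WT reads were 54 and 115. A region inside the Adgrl2 span (148988752 to 148989055), near its start at 148989096, had 5 DKO reads against 134 WT reads. The pentamer GGACT, searched alone and on both strands, occurred in 0 of the 4 windows shown, against 45.5% of 32851 RefSeq windows of the same 300 bases. That says only that these letters are not in the windows, which cover 45 to 107 bases of each region. None of 1005 microRNA hairpins in the RefSeq table overlapped an unannotated region.

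The regions without a gene were mostly short and shallow, and most had no DKO read. Their lengths ran from 150 to 556 bases, with a median of 188. The DKO count was 0 in 977 regions, 1 to 3 in 199 and 4 or more in 182, with a highest value of 237. The WT count had a median of 34, quartiles of 22 and 72, and a highest value of 3063. Regions without DKO reads made up 71.9% (exact Clopper-Pearson 95% interval 69.5 to 74.3), against 50.5% of all listed regions. Summed over the 1358 regions there were 3393 DKO reads against 115821 WT reads, a 28.2-fold lower sum in DKO (27.2 to 29.1) after the constant of 0.825 that the deposited enrichment factor applies to WT. They held 12.5% of all listed DKO reads and 20.2% of all listed WT reads. Over the 273339 bases covered, that is 0.0124 DKO reads and 0.424 WT reads per base, where exonic regions had 0.0198 and 0.356. In exonic regions the fold of the sums was 14.8 (14.6 to 15.0) and in intronic ones 23.5 (22.7 to 24.4). The median log2 of DKO over WT, with a pseudocount of 0.5, was -5.28 in unannotated regions, -5.21 in intronic, -4.27 in exonic and -4.93 in all listed regions. A median-ratio factor taken from the listed regions with DKO reads, which centres those regions by construction, moves every log2 value up by 3.77, so that the median of unannotated regions becomes -1.51.

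**Figure D1:**
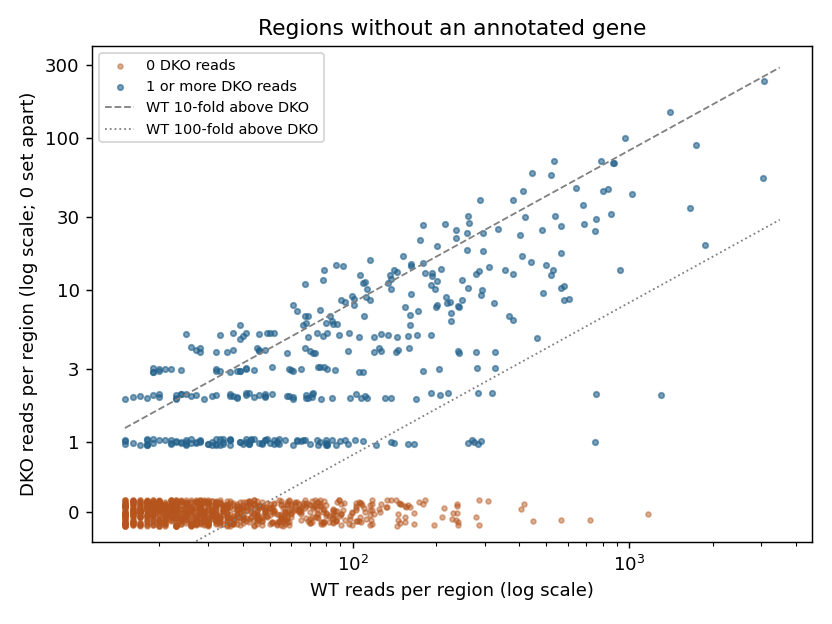
Reads per region in DKO (vertical, log scale, with counts of 0 set apart and points jittered) against WT (horizontal, log scale) for the 1358 regions without an annotated gene. The lines mark WT 10-fold and 100-fold above DKO after the authors' constant. The 977 regions without DKO reads lie at the bottom, and the highest DKO count is 237.

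A count of at least 10-fold lower depends on depth. With a DKO count of 0 set at a floor of 3 reads, 632 unannotated regions (46.5%) were at least 10-fold lower in DKO, against 52.5% of all listed regions. The share was nearly the same in intronic regions, 46.9% (43.9 to 49.9), and was 56.6% in exonic ones. A region without DKO reads passes this fold only with 37 or more WT reads, and 632 of the 977 had fewer. Among the 638 unannotated regions with 37 or more WT reads, 576 (90.3%) were at least 10-fold lower in DKO, against 77.8% of all listed regions and 72.3% of exonic regions of that depth. The order of unannotated and exonic regions therefore turns with this minimum, and the intronic share at that depth is not given here.

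At equal WT counts the unannotated regions had DKO reads less often than exonic ones, and in this share could not be told from intronic ones. With 15 to 19 WT reads, 92.0% of unannotated regions had no DKO reads (88.0 to 95.1), beside 93.2% of intronic regions (88.9 to 96.3) and 68.1% of exonic regions (62.0 to 73.9). With 30 to 49 WT reads the shares were 76.1% (70.9 to 80.7), 73.9% (67.6 to 79.5) and 43.5% (40.5 to 46.6) in the same order of classes. With 100 to 199 WT reads they were 45.3% (36.1 to 54.8) in unannotated, 39.7% (30.9 to 49.0) in intronic and 14.1% (11.2 to 17.5) in exonic regions. At 500 or more WT reads 3 of 38 unannotated regions had no DKO reads (7.89%, 1.66 to 21.4), 1 of 22 intronic and 2 of 48 exonic (4.17%, 0.509 to 14.3), and the intervals of all 3 classes overlapped. Below 500 WT reads, in 5 of the 6 ranges the intervals of unannotated and exonic regions did not overlap, the range of 200 to 499 being the exception (21.5%, 13.1 to 32.2, beside 8.42%, 4.98 to 13.1). Neighbouring regions can come from 1 transcript, which these intervals do not take into account.

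**Figure D2:**
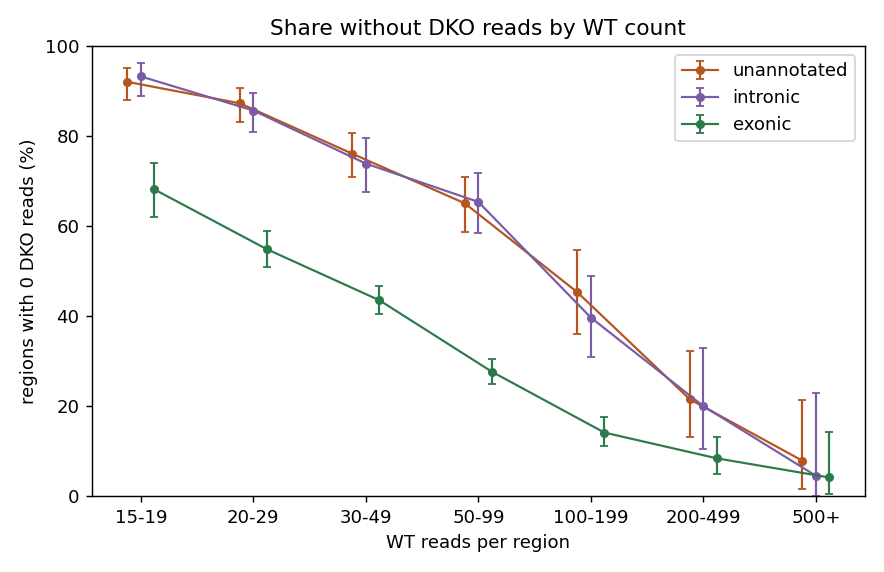
Share of regions with 0 DKO reads (vertical, percent, with exact 95% binomial intervals) by the WT count of the region (horizontal) for unannotated, intronic and exonic regions. Unannotated and intronic regions follow each other at every WT count, and exonic regions lie lower up to 199 WT reads.

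The fold of the summed counts fell with WT count in unannotated regions. It was 113 (79.5 to 167) over regions with 15 to 19 WT reads, 44.5 (39.8 to 49.9) at 50 to 99 and 19.8 (18.8 to 20.9) at 500 or more. In exonic regions the same ranges gave 29.7 with 118 DKO reads against 4252 WT reads, 16.3 (15.8 to 16.8) and 13.4 (12.9 to 13.9). Over regions with 200 to 499 WT reads the fold was 22.8 (21.3 to 24.5) in unannotated regions and 16.5 (15.4 to 17.7) in intronic ones. At 500 or more it was 15.8 (14.9 to 16.7) in intronic ones. The intervals of unannotated and intronic regions did not overlap in these deep ranges and overlapped in every range below. These intervals are of summed reads and leave out the spread between regions, which was wide among the deep ones. They therefore do not show that the 2 classes differ as groups of regions. The part of the authors' selection of regions in this fall was not tested.

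Among the deepest of these regions the DKO count varied widely at like WT counts. The region with the most WT reads, on chromosome 18 (62250076 to 62250425), had 237 DKO reads against 3063 WT reads, 10.7-fold lower (9.34 to 12.2). One of nearly the same depth on chromosome 4 (133948852 to 133949209), 15530 bases beyond Hmgn2, the gene of a nucleosome-binding protein, had 53 DKO reads against 3042 WT reads, 47.3-fold lower (36.1 to 63.3). The intervals of these folds did not overlap. On chromosome 9 (122601153 to 122601493) there were 20 DKO reads against 1881 WT reads, 77.6-fold lower (50.1 to 127). Chromosome 14 (94628452 to 94628686) had 90 against 1740 (15.9-fold) and chromosome 1 (9356115 to 9356340) had 33 against 1661 (41.5-fold). On chromosome 15, a region (90331883 to 90332049) with 144 DKO reads against 1402 WT reads was 8.03-fold lower (6.76 to 9.60). Its interval lay below those of the chromosome 4, 9 and 1 regions.

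Inside the long non-coding RNA gene Gm2560 on chromosome 4 (14235377 to 14235931) there were 2 DKO reads against 1305 WT reads, 538-fold lower with a counting interval of 149 to 4449. Inside Gm32647, another such gene, on chromosome 7 (94592801 to 94593090), there were 41 against 1021 (20.5-fold, 15.0 to 28.8). A region on chromosome 12 (9736761 to 9737126), 92944 bases from the nearest gene, had 95 against 961 (8.34-fold, 6.75 to 10.4). The 10 deepest regions together held 21.1% of the DKO reads and 14.9% of the WT reads of all unannotated regions. Over the 117 regions with 200 or more WT reads the log2 of DKO over WT had quartiles of -6.55 and -3.85 and a highest value of -2.63. Of the 100 listed regions with the most WT reads per base, 41 had no gene, 27 were intronic and 23 exonic, where 20.3% of all listed regions had no gene. Among the 500 densest regions 134 had no gene (26.8%) and 227 were exonic, so the count depends on where the list ends.

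Of the 5 deepest regions without any DKO read, 4 are described here, on chromosomes 11, 1 and 2. The one on chromosome 11 (64963384 to 64963560), 15470 bases upstream of Elac2, the gene of an endonuclease that trims transfer RNA ends, had 0 DKO reads against 719 WT reads. With 0 set at the floor of 3 reads that is 198-fold lower, and the lower counting limit was 160-fold. On chromosome 1, regions at 186984410 to 186984716 and 142898655 to 142898962 had 0 DKO reads against 565 and 450 WT reads. They were 155-fold and 124-fold lower at that floor (lower limits 126 and 100). The chromosome 2 region (4096833 to 4097038) lay inside Frmd4a and had 0 against 416, 114-fold lower at that floor (lower limit 92.6). At a DKO count of 0 the fold and its lower limit follow the WT count alone, so the order among these regions is an order of WT depth.

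At the other end, the regions with the smallest change among those at or above the median mean count of 17.5 reads had 5 to 14 DKO reads. A region on chromosome 15 (93234369 to 93234562), 5168 bases beyond the xylosyltransferase gene Gxylt1, had 11 DKO reads against 67 WT reads, 5.02-fold lower (2.64 to 10.5). On chromosome 18 (82888188 to 82888394) there were 13 against 79 (5.01-fold, 2.77 to 9.83). A region on chromosome 14 (99519245 to 99519477) had 14 against 87 (5.13-fold, 2.90 to 9.76). Those on chromosome 3 (6303752 to 6303924) and chromosome 7 (120610699 to 120610855) had 6 against 39 (5.36-fold) and 5 against 33 (5.44-fold). The intervals of all 5 overlapped, and with the median-ratio factor all 5 had log2 values above 0 (1.44 to 1.49). No unannotated region with DKO reads was under 4.12-fold lower, and the lowest fold in the whole table was 2.91.

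The positions of the regions were set against RefSeq genes of GRCm38.p6. A second annotation gave a gene to some of them. In all, 236 regions (17.4%) overlapped a RefSeq gene span, 105 of them a protein-coding gene and 131 genes of other kinds only, of which 123 were counted under a long non-coding RNA gene. The other 1122 overlapped none. The median distance to the nearest gene of any kind was 14832 bases and to the nearest protein-coding gene 63342 bases, and 134 regions (9.87%) were over 500000 bases from any protein-coding gene. Regions within 5000 bases of a gene, overlaps included, numbered 421 (31.0%).

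**Figure D3:**
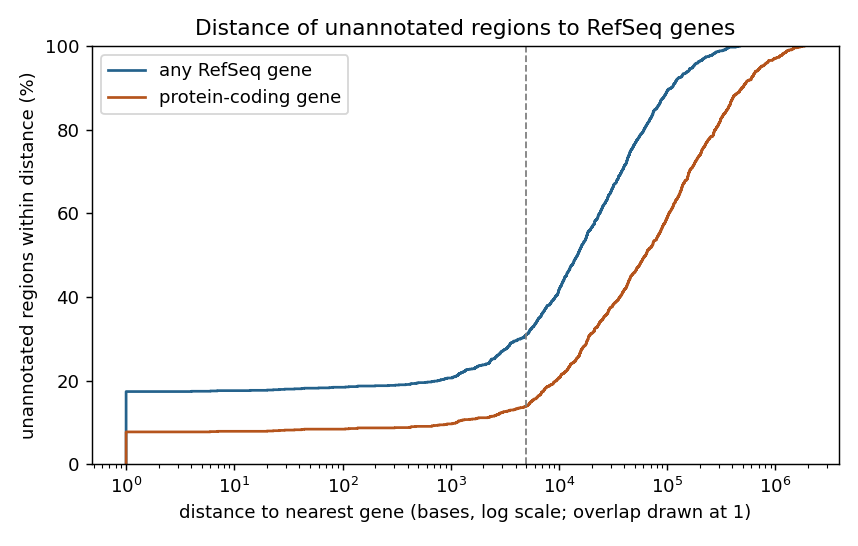
Cumulative share of the 1358 unannotated regions (vertical, percent) within a distance (horizontal, bases on a log scale, overlaps drawn at 1) of the nearest RefSeq gene of any kind and the nearest protein-coding gene. The dashed line marks 5000 bases, within which 31.0% had a gene of any kind and 13.9% a protein-coding gene.

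The share of regions without DKO reads was lowest inside coding genes. It was 58.1% (48.1 to 67.7) in the 105 regions within protein-coding genes, 66.7% (55.5 to 76.6) in the 84 lying up to 5000 bases outside one, and between 69.4% and 76.8% in all farther ranges, against 50.5% of all listed regions. The interval inside coding genes overlapped that of every other range except 20000 to 50000 bases (70.3 to 82.5) and 100000 to 500000 bases (70.0 to 78.6). The median WT counts of the ranges differed too, at 49 reads inside coding genes, 43 just outside and 31.5 to 34 farther away. The part of this difference in depth in the shares was not tested. The median log2 of DKO over WT was -5.01 inside coding genes and between -5.39 and -5.15 in the other ranges. The 319 regions over 50000 bases from any gene had a share of 73.4% (68.1 to 78.1), a median log2 of -5.28 and 981 DKO reads against 24949 WT reads, a 21.0-fold lower sum (19.7 to 22.4).

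Among regions inside coding genes whose gene was listed elsewhere, most lay before the gene start that the authors had used. For 47 of the 105 regions the same gene was listed elsewhere in the table, under 36 genes, and for 39 of these the strand was at hand. From the deposited distances to the transcription start, the start used for those genes could be computed, and it was identical for all listed regions of a gene. Of the 39 regions, 29, in 19 genes, lay upstream of that start and inside the longer RefSeq gene span, by 5054 to 451328 bases. The other 10 lay downstream of it. Runs in Cic and 2900026A02Rik, described below, gave 5 and 6 of the 29. A place outside the authors' gene follows from the rule, because regions within their genes carried a label. The least distance follows from it in part, because 781 of 785 rows labelled upstream lay 0 to 5000 bases before a start. In these 29 regions there were 137 DKO reads against 3369 WT reads, and 13 had no DKO reads. The Acot11 region shown above is one of them, 5054 bases before the authors' start.

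Cic, which held a run of neighbouring regions, encodes capicua, a transcriptional repressor controlled by receptor tyrosine kinase signalling. Its 5 unannotated regions lay within 2243 bases on chromosome 7 (25271204 to 25273446), 8980 to 10798 bases before the authors' start and inside a RefSeq gene that begins 14521 bases earlier. From the first to the last along the chromosome they had 9, 5, 21, 8 and 18 DKO reads against 248, 127, 175, 200 and 296 WT reads. All 5 had reads in both libraries. The third was 6.87-fold lower in DKO (4.36 to 11.4) and the others 13.6-fold to 22.7-fold lower, and the intervals of 3 of those 4 overlapped that of the third. Summed, they had 61 DKO reads against 1046 WT reads, 14.1-fold lower (10.9 to 18.6). The single region that the authors assigned to Cic, at an exon border (25286856 to 25287057), had 5 DKO reads against 78 WT reads (12.9-fold), which is within that interval.

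The run in 2900026A02Rik had almost no DKO reads. Its 6 regions spanned 9664 bases on chromosome 5 (113182469 to 113192132), 19270 to 28630 bases before the authors' start. Along the chromosome they had 0, 0, 0, 2, 1 and 0 DKO reads against 61, 63, 45, 16, 87 and 67 WT reads. The fourth, with the fewest WT reads, had the most DKO reads. Summed, there were 3 DKO reads against 339 WT reads, 93.2-fold lower with a counting interval of 31.6 to 454. The gene's annotated 3'UTR regions had 1 against 79 and 0 against 32.

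Another run, on chromosome 10 (27812320 to 27825361), lay in no RefSeq gene. Its 6 regions were 2604 to 15296 bases upstream of the long non-coding RNA gene Gm30228 and at least 195129 bases from the nearest coding gene, the laminin gene Lama2. They had 0, 5, 2, 3, 3 and 4 DKO reads against 18, 25, 27, 20, 41 and 46 WT reads. The sum was 17 DKO reads against 177 WT reads, 8.59-fold lower (5.21 to 15.1). Its interval lay below that of the 2900026A02Rik run and overlapped that of the Cic run.

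**Figure D4:**
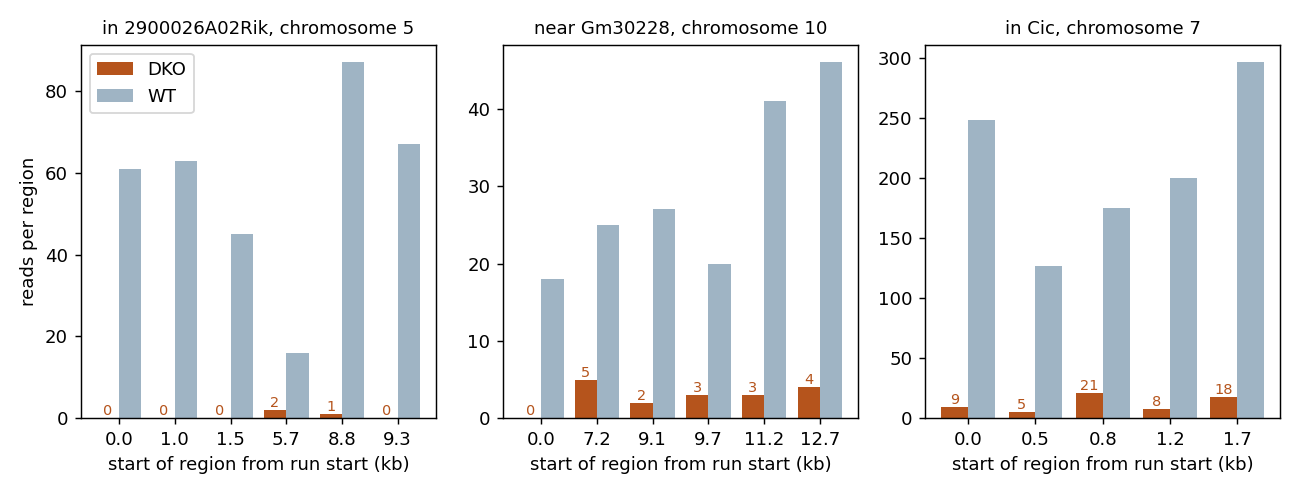
Reads per region in DKO (left bar, with its count) and WT (right bar) for the 3 runs with the most unannotated regions, evenly spaced in order along the chromosome and labelled with the start of each region from the start of the run in kilobases. Vertical axes differ between panels. DKO reads were 0 to 2 in 2900026A02Rik, 0 to 5 near Gm30228 and 5 to 21 in Cic.

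Runs were rare. Taking neighbours with gaps of at most 10000 bases, 51 regions (3.76%) formed 20 runs, 17 of them pairs, and 1307 regions stood alone. Of regions in runs 47.1% had no DKO reads (32.9 to 61.5), against 72.9% of regions alone (70.4 to 75.3). The first interval treats the 51 regions as independent, although they lie in 20 runs, so it may be too narrow. Regions in runs had a median of 48 WT reads and regions alone 34, and the part of this in the difference was not tested.

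Further regions before the authors' starts are named here after their values were seen. In Tenm3, the gene of a teneurin of synaptic partner matching, a region on chromosome 8 (48964354 to 48964539) had 45 DKO reads against 414 WT reads, 7.59-fold lower (5.57 to 10.6). It lay 289756 bases before the authors' start. Their own coding-exon region of Tenm3 had 2 against 51, and their region labelled upstream of it had 0 against 76. In Nrxn3, a neurexin gene, a region on chromosome 12 (88722779 to 88723010) had 13 against 183 (11.6-fold, 6.62 to 22.2), while both annotated intronic regions of that gene had no DKO reads (75 and 49 WT reads). In Zfhx3, a homeobox transcription factor gene, a region on chromosome 8 (108395655 to 108395954) had 2 DKO reads against 319 WT reads, 132-fold lower (36.1 to 1091). Its annotated coding-exon regions included one with 51 against 334 (5.40-fold) and one with 0 against 122 (33.5-fold with 0 set at 3 reads). Annotated regions of 1 gene thus varied among themselves. The Frmd4a region described above lay 55928 bases before the authors' start. Regions in Robo1, a receptor of axon guidance, in the cadherin genes Cdh12 and Cdh18, and in Tet3, an oxidase of 5-methylcytosine, had 0 to 2 DKO reads against 23 to 89 WT reads.

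Over the 36 genes with regions of both kinds, the 47 unannotated regions had 173 DKO reads against 4215 WT reads, a 20.1-fold lower sum (17.3 to 23.5). The 79 annotated regions of the same genes had 518 against 9020, 14.4-fold lower (13.1 to 15.7). These sums were not paired by gene, and the genes weigh differently in each. An annotated region of Irs2 had 1398 WT reads and its unannotated region 15, while Cic had 78 annotated and 1046 unannotated. No DKO reads were found in 48.9% of the unannotated regions (34.1 to 63.9) and 38.0% of the annotated ones (27.3 to 49.6), and these intervals overlapped. The 58 regions in coding genes without another listed region had 55 DKO reads against 3950 WT reads, 59.2-fold lower (45.4 to 78.8). Among them, regions in the corepressor gene Lcor and in Tenm2 had 0 DKO reads against 239 and 214 WT reads.

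In the fold of the sums, regions inside long non-coding RNA genes resembled those in no RefSeq gene. The 123 such regions had 375 DKO reads against 13659 WT reads, and the counting interval of the fold was 27.1 to 33.4, and 65.0% had no DKO reads (55.9 to 73.4). Besides Gm2560 and Gm32647, picked after their values were seen, Gm52517 had 14 DKO reads against 925 WT reads (54.5-fold), Gm38486 had 48 against 840 (14.4-fold) and Gm30224 had 1 against 290 (239-fold, with a counting interval of 42.6 to 9480). Gm2736, a pseudogene on chromosome 13 (107348423 to 107348666), had 2 against 755 (311-fold, 85.9 to 2576). The regions in no RefSeq gene gave 2783 against 93011, 27.6-fold lower (26.5 to 28.6), and that interval overlapped the one for long non-coding RNA genes. Of the regions in no RefSeq gene 74.0% had no DKO reads (71.3 to 76.5), a higher share whose interval overlapped too. Their WT reads per base were 0.416, against 0.534 inside long non-coding RNA genes.

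Near coding genes, the regions lay mostly beyond the gene's end. Of the 84 regions up to 5000 bases outside a protein-coding gene, 55 lay downstream, 5 upstream and 24 beside genes whose strand was not at hand. This order follows from the rule in part, because the authors' upstream label covered such regions: 781 of its 785 rows lay 0 to 5000 bases before a start. The 55 downstream regions had 139 DKO reads against 5406 WT reads, 32.1-fold lower (27.1 to 38.2), and 67.3% had no DKO reads (53.3 to 79.3). Within 500 bases of the end there were 12 regions, 8 of them without DKO reads, and their WT counts ran from 29 to 280.

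Of these 12, named after their values were seen, the region 26 bases beyond Tal1, a blood and endothelial transcription factor gene, had 0 DKO reads against 78 WT reads. That is 21.4-fold lower with 0 set at 3 reads (lower counting limit 17.0). The one 36 bases beyond Madd, the gene of a Rab exchange factor, had 0 against 64. A region 138 bases beyond Letm1, the gene of a mitochondrial inner membrane protein, had 13 DKO reads against 280 WT reads (17.8-fold), while the annotated coding-exon region of Letm1 had 7 against 57 (6.72-fold). The region 435 bases beyond the protocadherin gene Pcdh17 had 0 against 126. Beyond Gna12, the gene of a G protein alpha subunit, regions at 424 and 1146 bases had 1 and 4 DKO reads against 80 and 37 WT reads, and the annotated 3'UTR region had 8 against 83. The folds of both outer Gna12 regions, 66.0 (11.5 to 2638) and 7.63 (2.74 to 29.5), had overlapping intervals. The fold of the 3'UTR region, 8.56, lay within that of the farther one only. Its own counting error, with 8 DKO reads, is left out there, so no difference from the nearer region is shown. Farther out, Max, the gene of the partner of Myc, had 0 against 48 at 751 bases, Nfkbia, an inhibitor of NF-κB, 1 against 33 at 2593 bases, and the phosphatase gene Dusp1 1 against 43 at 2965 bases, where the long non-coding RNA gene Gm34455 is also annotated. The deepest, 4145 bases beyond Kbtbd2, had 28 DKO reads against 760 WT reads (22.4-fold).

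The regions without a gene were spread over all chromosomes. They made up 38.2% of listed regions on chromosome X (31.0 to 45.8), 34.3% on chromosome 18 (27.3 to 41.8) and 10.8% on chromosome 11 (8.28 to 13.9), against 20.3% over all. Set against RefSeq protein-coding genes, chromosome X had 7.04 unannotated and 11.4 annotated regions per 100 such genes, chromosome 11 had 3.42 and 28.1, and chromosome 18 had 11.7 and 22.5. The share on chromosome X thus went with few annotated regions, and that on chromosome 18 with many unannotated ones. No DKO reads were found in 51 of the 68 regions on chromosome X, 41 of the 60 on chromosome 18 and 39 of the 55 on chromosome 11, and the median log2 of DKO over WT lay between -5.50 and -5.08 on every chromosome.

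**Figure D5:**
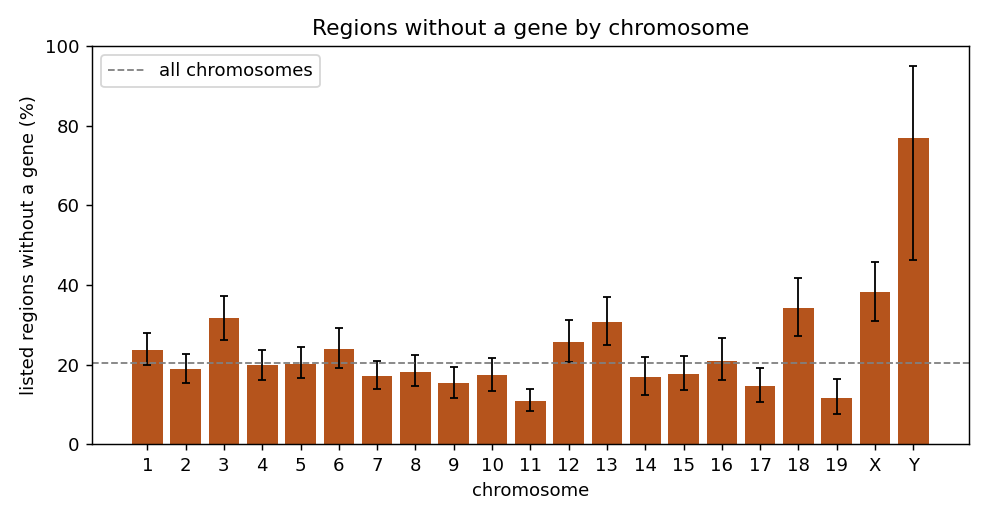
Share of listed regions without a gene (vertical, percent, with exact 95% binomial intervals) by chromosome (horizontal). The dashed line is the share over all chromosomes, 20.3%. The share was lowest on chromosome 11 (10.8%) and highest on chromosome Y, where 10 of 13 regions had no gene.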

How the data were processed

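The deposited table held 7562 rows and 6697 distinct regions, each used once, and 0 regions mixed blank and filled annotation. The authors deposited a whole-number count per region for each genotype, with any scaling not stated in the file headers. A deposited signal, read density, equals WT reads divided by region length. A deposited ratio, the enrichment factor, equals WT reads divided by DKO reads and multiplied by 0.825, and is blank where DKO was 0. Bowtie2, DESeq and mm9 are named, without version or role, per the submitters' processing notes, and the peak caller is not given in the sources used here. Of 6035 rows whose gene was found in RefSeq, 6026 (99.9%) lay within 5000 bases of it in GRCm38.p6, so positions are read as GRCm38.

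Python 3.11.15, pandas 2.3.3, numpy 2.4.6 and scipy 1.17.1 were used. Log2 values have a pseudocount of 0.5 on both counts. Folds are WT over DKO with the constant, and a DKO count of 0 was set at a floor of 3 reads in that library. That floor is below 3.69, the upper exact 95% limit of a count of 0, and leaves out the counting error of WT. Intervals are exact (Clopper-Pearson), and reads made by PCR are not independent molecules. RefSeq gives gene spans, and strand only where a promoter window was at hand. The functions were tested on simulated data. Members and lists were chosen with earlier results of these data known. Regions were named as the 10 with the most WT reads, the 5 deepest with 0 DKO reads, the 5 at each end of the change at or above the median mean count, and the 3 longest runs; others were named after their values were seen, and 1 region that the rule picks is not reported here. The planned motif and repeat content of the regions were left out, because no genome was used here.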

Additional observations from a re-analysis of the deposited data

How the results depend on the processing

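The settings were planned except the one without chromosome Y, which was chosen after seeing the data. For the median log2 value (-5.28), leaving out the constant gave -5.55, a median-ratio factor -1.51, pseudocounts of 0.25 and 2 gave -6.20 and -3.60, and keeping only regions whose mean count reached the median over the whole table (22.5) gave -6.26. The share without DKO reads (71.9%) was 50.2% in those deeper regions. The share at least 10-fold lower (46.5%) was 58.3% without the constant, 93.1% with a floor of 1 count, 89.1% in the deeper regions and 43.6% over 50000 bases from any gene. The fold of the sums (28.2) was 34.1, 24.6 and 21.0 without the constant, in the deeper regions and far from genes, and 29.5 without the deepest region. Within 1000 and 20000 bases of a gene lay 20.6% and 56.6% of regions (31.0% within 5000), and gaps of 1000 and 50000 bases put 1.33% and 10.0% in runs. The constant, factor, pseudocount, floor and distances enter these values directly, and for the deeper and far regions the cause was not tested. With 1 region per run, with regions outside RefSeq genes only and without chromosome Y, both shares and the fold of the sums stayed within their counting intervals and the median log2 value was -5.28. The median-ratio factor, from the 3315 listed regions with DKO reads, moves every log2 value up by 3.77 by construction and says nothing of direction. It put 16 of 36 named regions above 0: 0.36 and 1.49 on chromosome 18, 0.77 and 1.49 on chromosome 15, 0.71 on 12, 1.45 on 14, 1.44 on 3, 1.44 on 7 beside 1.02 and 0.042 in Cic, 1.83, 0.58, 1.49, 0.48 and 0.68 in the chromosome 10 run, and 1.32 in 2900026A02Rik. No paired analysis was possible because each group had 1 library. Motif and repeat alternatives were not run.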

Other observations

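The 10 regions without a gene on chromosome Y are given as values. They had 0 to 2 DKO reads against 16 to 72 WT reads, and 8 of the 10 had no DKO reads. The deepest (90744239 to 90744531), inside the RefSeq gene Gm52481, had 2 DKO reads against 72 WT reads. The next (83485516 to 83485734) had 0 against 62. Of the 10, 5 were 219 or 220 bases long. Regions starting at 12825844 and 17539073 lay 15162 bases from Gm21393 and Gm20739. Those starting at 21345612 and 81622670 lay 101784 and 101785 bases from Gm20865 and Gm20912, and those at 54212651 and 66766585 lay 24421 and 24415 bases from Gm21302 and Gm20852. The mouse Y long arm is known for multicopy gene families, and whether reads of these regions could be placed on 1 copy was not tested.

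The region farthest from any RefSeq gene, on chromosome 4 (29667632 to 29667863), was 471354 bases from the pseudogene Gm11919 and had 0 DKO reads against 19 WT reads. The next farthest, on chromosome 1 (114385545 to 114385741) and chromosome 5 (56303814 to 56303971), had 1 against 18 and 0 against 18.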
